A study of Mus musculus with 6 samples.

Results

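The genes of the neurotrophin and GDNF systems followed here in mouse tooth germs are 9 of the 23420 gene rows of the count tables. They were taken by symbol: the ligand genes Bdnf, Ntf3, Gdnf and Nrtn, and the receptor genes Ngfr, Ntrk2, Ntrk3, Gfra1 and Ret. All 9 passed the filter on low counts, and so they are described in full. Tooth germs of C57BL/6 embryos at E15.5 were sequenced in 3 wild-type and 3 Smad7-/- libraries. Smad7 encodes an inhibitory SMAD that restrains signalling by BMP and TGF-beta receptors, and the design sets its absence against the intact gene. Besides the Smad7 genotype, the labels give both groups the same strain, age and tissue. The allele, the tooth position, the sex and whether germs or embryos were pooled are not stated in them. Nor do they say that each library came from its own embryo. The p-values therefore describe the spread of these 6 libraries, which may be partly technical.

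Neurotrophins are secreted as precursors and bind TRK receptor tyrosine kinases, each ligand with its preferred receptor. The p75 receptor, encoded by Ngfr, binds all of them and their precursors. GDNF family ligands bind a GFRA co-receptor anchored in the membrane by a lipid, and the pair then engages the RET kinase. Both systems are best known for guiding and maintaining the sensory and sympathetic nerves that later enter the dental pulp. Several of their ligands and receptors are also made by the epithelium and mesenchyme of the tooth germ before nerves arrive.

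The libraries held 37591888 to 56575476 counts. Smad7 had 859 to 1097 counts in wild type and 41 to 80 in Smad7-/-, so each library matched its label. Levels are given in CPM, counts scaled to a common library size. Dental epithelium and dental mesenchyme markers were present in every library, with Krt14, a keratin of basal epithelium, at 1529 ± 45.6 CPM and Barx1, a homeobox gene of molar mesenchyme, at 62.5 ± 6.73 CPM in wild type (mean ± SD, n = 3). On the first principal component of all tested genes (33.5% of the variance) the libraries divided across genotype. The first set, below 0, held Smad7-/- libraries 1 and 2 with wild-type library 1. The second set, above 0, held Smad7-/- library 3 beside 2 of wild type, libraries 2 and 3. The labels name no batch for these sets, and differences within each set are given beside the pooled ones. Xist, the X-inactivation RNA, was at 195 CPM in wild-type library 1, at 365 CPM in Smad7-/- library 3 and at most at 0.202 CPM elsewhere. Ddx3y, a gene of the Y chromosome, was at 0 CPM in those 2 libraries and at 117 to 166 CPM in the others. Each genotype thus held libraries of both kinds, so its 3 libraries were not all repeats of the same embryo.

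None of the 9 genes differed between Smad7-/- and wild-type tooth germs beyond the spread of the libraries. In Smad7-/- the mean was higher for 8 of them and lower for 1, Ntrk2, and the fitted log2 changes ran from -0.10 for Ntrk2 to 0.50 for Ntrk3. Their median was 0.25, against -0.00283 over all 15284 tested genes, of which 49.1% were fitted above 0. By the quasi-likelihood test of edgeR, adjusted over all tested genes, 0 of 9 were called (adjusted p = 0.999 for each), where 0.0262% of all tested genes were. At an unadjusted p under 0.05 edgeR, DESeq2 and limma-voom each passed 0 of 9, where edgeR passed 5.14% of all tested genes. The ranges of the groups overlapped for all 9. Ranges lay wholly higher in Smad7-/- for 4.97% of tested genes and wholly lower for 3.91%. In whole tissue, fewer cells of a type and less RNA per cell cannot be told apart.

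**Figure D1:**
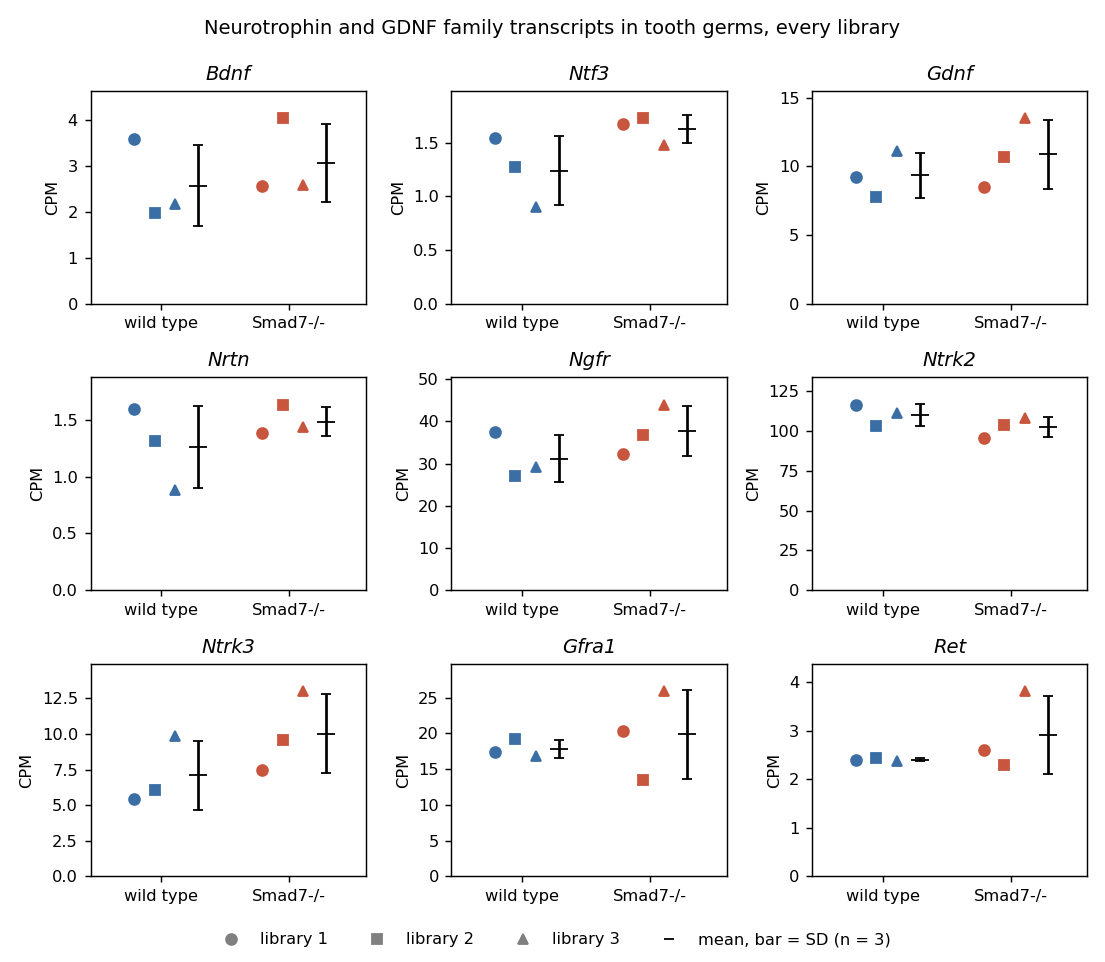
Expression in CPM (linear axes from 0) of the 9 genes in each of 3 wild-type (blue) and 3 Smad7-/- (red) libraries, with the mean and SD of each group at the right of its points. The ranges of the groups overlap in every panel, and Smad7-/- library 3 (red triangle) is the highest point for Gdnf, Ngfr, Ntrk3, Gfra1 and Ret.

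Among the neurotrophin ligands, Bdnf encodes brain-derived neurotrophic factor, the ligand of TRKB. It stood at 3.57, 1.96 and 2.16 CPM in wild-type libraries 1 to 3 and at 2.56, 4.03 and 2.59 CPM in the Smad7-/- libraries. One library of each genotype was high, wild-type library 1 and Smad7-/- library 2, and the other 4 lay close together. The difference was 0.25 ± 0.30 (log2, SE; n = 3 per group; edgeR adjusted p = 0.999), with a 95% interval from -0.41 to 0.92. Leaving out Smad7-/- library 2 gave 0.0061, and leaving out wild-type library 1 gave 0.56. In mm10 Bdnf occupies positions 109674700 to 109727007 of chromosome 2 on the forward strand, and RefSeq gives it 7 start sites, which the gene counts pool. Its exons share 896 bases with the antisense gene Gm45346, whose reads cannot be told apart without strand.

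Ntf3 encodes neurotrophin-3, the ligand of TRKC. It was at 1.54, 1.27 and 0.90 CPM in wild type and at 1.68, 1.73 and 1.48 CPM in Smad7-/-. Smad7-/- libraries 1 and 2 lay above every wild-type library, and Smad7-/- library 3 lay just under the highest of them. Only 43 to 85 counts per library stood behind these levels, a counting error of 15.2% (SD) at the lowest. The difference was 0.39 ± 0.29 (log2, SE; edgeR adjusted p = 0.999), and the interval from 0.832-fold to 2.06-fold is wide. Ntf3 lies on chromosome 6 at 126101412 to 126166910, reverse strand.

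Of the GDNF family ligands, Gdnf is the founding member, a survival factor for several kinds of neuron that acts through GFRA1 and RET. It stood at 9.19, 7.79 and 11.1 CPM in wild type and at 8.46, 10.6 and 13.5 CPM in Smad7-/-. The groups interleaved, with only Smad7-/- library 3 above every wild-type library. The difference was 0.22 ± 0.20 (log2, SE; edgeR adjusted p = 0.999), and without Smad7-/- library 3 it was 0.0320. Gdnf lies on chromosome 15 at 7810846 to 7837575, forward strand.

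Nrtn encodes neurturin, the GDNF relative that prefers GFRA2. It was at 1.60, 1.31 and 0.880 CPM in wild type and at 1.38, 1.63 and 1.44 CPM in Smad7-/-, so the 3 Smad7-/- libraries lay within or just above the spread of wild type. The difference of 0.23 ± 0.30 (log2, SE; edgeR adjusted p = 0.999) became 0.0289 without wild-type library 3, the lowest of the 6. Nrtn had as few as 42 counts in a library. It lies on chromosome 17 at 56751325 to 56757530, reverse strand.

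Ntrk2, the TRKB gene, was the most abundant of the 9 per library and the steadiest. It stood at 117, 103 and 111 CPM in wild type and at 95.6, 104 and 108 CPM in Smad7-/-, so that only Smad7-/- library 1 lay below every wild-type library. The mean went from 110 ± 6.77 to 103 ± 6.49 CPM (SD, n = 3), a difference of -0.10 ± 0.09 (log2, SE; edgeR adjusted p = 0.999). The 95% interval ran from 0.811-fold to 1.07-fold, the narrowest of the 9 genes. Ntrk2 makes both a full-length kinase and truncated receptors without the kinase domain. GENCODE M21 gives its complete coding transcripts products of 466 to 821 residues, and counts per gene do not separate them. The gene spans 327402 bases on chromosome 13, at 58806569 to 59133970, forward strand.

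Ntrk3, the TRKC gene, had the largest fitted difference. It was at 5.40, 6.05 and 9.84 CPM in wild type and at 7.48, 9.61 and 13 CPM in Smad7-/-. Wild-type library 3 lay above Smad7-/- libraries 1 and 2, which made the ranges overlap. The mean went from 7.10 ± 2.40 to 10.03 ± 2.78 CPM (SD, n = 3), a difference of 0.50 ± 0.27 (log2, SE; edgeR unadjusted p = 0.0902, adjusted p = 0.999; DESeq2 unadjusted p = 0.0517), with an interval from 0.936-fold to 2.15-fold. Within the first set of libraries the log2 difference was 0.65 and within the second it was 0.75, both above the pooled value. With the set as a covariate it was 0.69 ± 0.21 (edgeR adjusted p = 0.514). Leaving out wild-type library 3 gave 0.81 and leaving out Smad7-/- library 3 gave 0.27, and neither fit called the gene. The adjusted p ran from 0.337 to 1.00 over the 16 alternatives. Ntrk3 spans 562054 bases on chromosome 7, at 78175959 to 78738012, reverse strand, and its complete coding transcripts encode 612 to 864 residues.

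Ngfr encodes the p75 receptor, a member of the TNF receptor family that marks neural crest derivatives. It stood at 37.4, 27.0 and 29.1 CPM in wild type and at 32.3, 36.8 and 43.9 CPM in Smad7-/-. Wild-type library 1 lay above 2 of the Smad7-/- libraries, and Smad7-/- library 3 was the highest. The mean went from 31.2 ± 5.50 to 37.7 ± 5.88 CPM, a difference of 0.27 ± 0.15 (log2, SE; n = 3; edgeR unadjusted p = 0.0992, adjusted p = 0.999). Its sign depended on the set, at -0.12 within the first and 0.65 within the second. Ngfr lies on chromosome 11 at 95568818 to 95587735, reverse strand.

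Gfra1, the co-receptor gene for GDNF, was at 17.4, 19.2 and 16.8 CPM in wild type and at 20.3, 13.5 and 25.9 CPM in Smad7-/-. Smad7-/- held both the lowest and the highest library, with an SD of 6.21 against 1.23 CPM in wild type. The difference was 0.16 ± 0.21 (log2, SE; edgeR adjusted p = 0.999), and it changed sign to -0.08 without Smad7-/- library 3. Gfra1 lies on chromosome 19 at 58235604 to 58455909, reverse strand, and shares 416 exon bases with the antisense gene Gm16277, under the same limit.

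Ret encodes the kinase that all GDNF family ligands share. It was at 2.40, 2.45 and 2.39 CPM in wild type, nearly level, and at 2.61, 2.30 and 3.82 CPM in Smad7-/-. Smad7-/- library 3 stood apart from the other 5, and without it the log2 difference fell from 0.28 ± 0.25 (SE; edgeR adjusted p = 0.999) to 0.0238. The wild-type counts of 114 to 123 varied by 1.30% in CPM, less than the 8.79% that counting error alone gives at the mean count, so their closeness is no measure of the spread to be met in further libraries. Ret lies on chromosome 6 at 118151745 to 118197718, reverse strand.

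**Figure D2:**
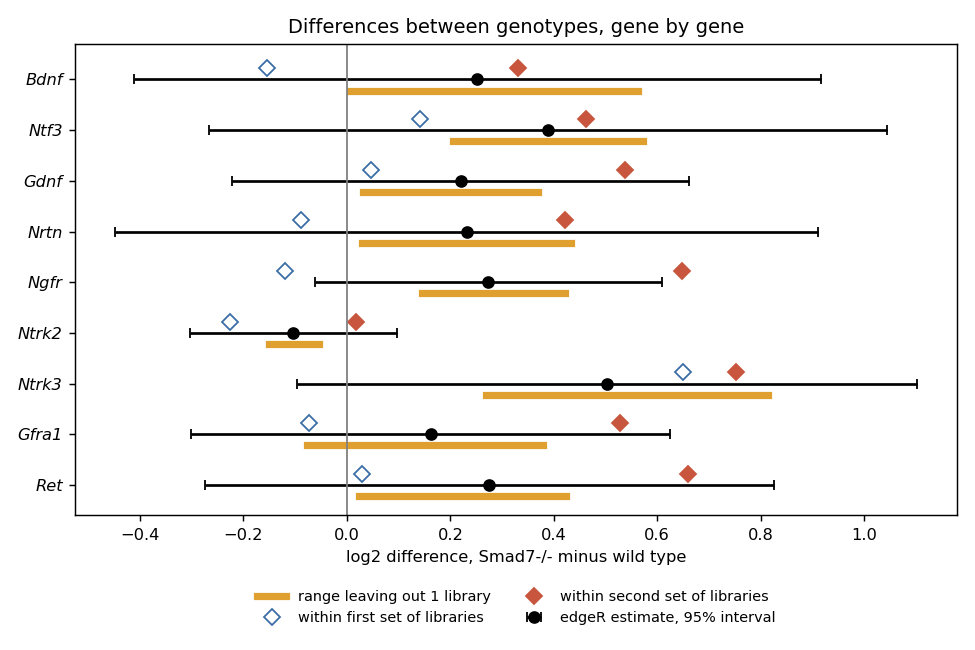
Log2 difference, Smad7-/- minus wild type, for each of the 9 genes: edgeR estimate with its 95% interval (black, n = 3 per group), range over fits that each leave out 1 library (orange), and differences of mean log2 CPM within the first (open blue) and second (red) set of libraries. Every interval includes 0, and only Ntrk3 lies above 0.6 within both sets.

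Smad7-/- library 3 was the highest of the 6 for 5 of the 9 genes, Gdnf, Ngfr, Ntrk3, Gfra1 and Ret, and the lowest for none. Smad7-/- library 2 was the highest for Bdnf, Ntf3 and Nrtn. Within the second set, where library 3 is the sole Smad7-/- library, all 9 differences were above 0, from 0.02 for Ntrk2 to 0.75 for Ntrk3. Within the first set 4 were above 0 and 5 below, from -0.22 for Ntrk2 to 0.65 for Ntrk3.

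Summed marker lists of the tissue's cell types also differed between libraries. The sum of 14 dental mesenchyme markers was 1567 to 1865 CPM in wild type and 1999 to 2037 CPM in Smad7-/-, highest in Smad7-/- library 3. In this sum the 3 Smad7-/- libraries lay close together, at 0.109, 0.106 and 0.133 in log2 CPM minus the mean of 6 libraries. Its largest members were Vim at 841 and Pdgfra at 429 CPM over the 6 libraries. Of these 14 markers 13 were fitted higher and 1 lower in Smad7-/-, with a median log2 change of 0.37 and 0 called. Ranges lay wholly higher for 9 of the 14, beside 4.97% of all tested genes. The sum of 12 dental epithelium markers was 11022 to 12170 CPM in wild type and 9438 to 11312 CPM in Smad7-/-, lowest in Smad7-/- library 3. Of these 12 markers 1 was fitted higher and 11 lower, with a median log2 change of -0.13 and 0 called. Smad7-/- library 3 is also 1 of the 2 with Xist. The other, wild-type library 1, lay below the mean of the 6 libraries for Gdnf, Ntrk3, Gfra1 and Ret and above it for Ngfr. The part of cell types and of sex in the levels of Gdnf, Ngfr, Ntrk3, Gfra1 and Ret was not tested.

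**Figure D3:**
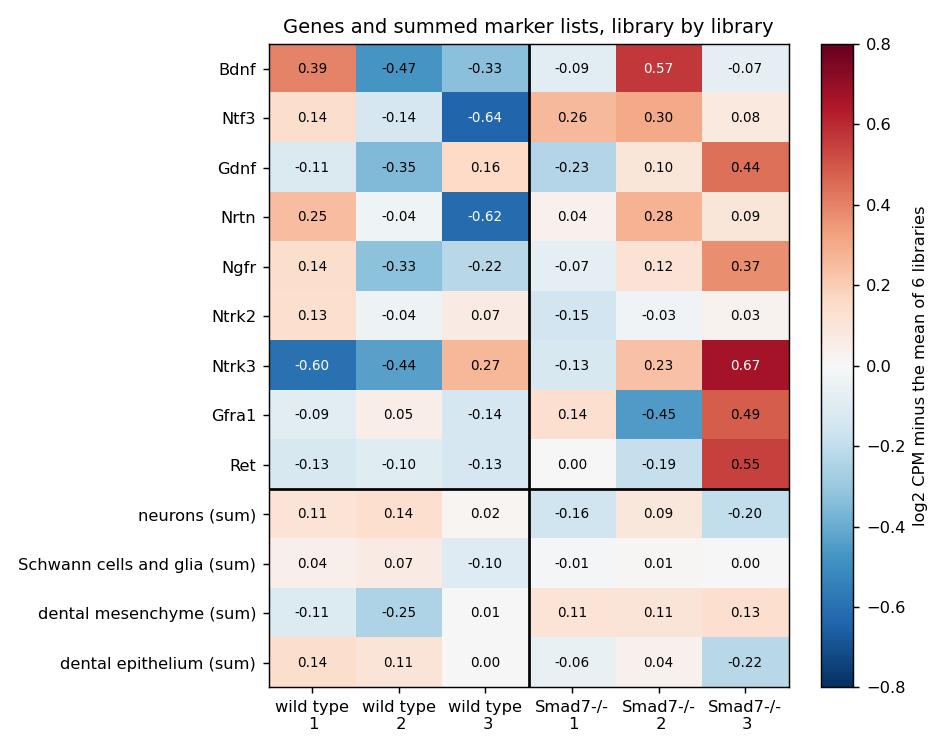
Log2 CPM of the 9 genes and of the summed markers of 4 cell types in each library, minus the mean of the row over 6 libraries; red is above the mean and blue below, and the numbers are the values. Smad7-/- library 3 stands at 0.67 for Ntrk3, 0.55 for Ret and 0.49 for Gfra1, with dental mesenchyme at 0.13 and dental epithelium at -0.22.

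Markers of the nerves that carry these receptors were looked at in the same way. Of 20 neuronal markers, 13 stayed under 1 CPM in every library, among them Pou4f1, Isl1 and Prph, which mark sensory and autonomic neurons (0.0347 to 0.440 CPM). The abundant neuronal markers Tubb3 (298 ± 21.6 CPM in wild type) and Stmn2 (47.0 ± 1.19 CPM) carried most of the neuronal sum, which was 361 to 393 CPM in wild type and 311 to 381 CPM in Smad7-/-. Elavl4, the other defining neuronal marker, was at 0.373 to 1.01 CPM. The rest of the list that reached 1 CPM were Uchl1, an abundant neuronal enzyme, at 11.04 to 20.7 CPM, Th, the catecholamine enzyme of sympathetic neurons, at 5.54 to 10.9 CPM, Gap43, of growing axons, at 2.18 to 5.10 CPM and Syt1, of synaptic vesicles, at 1.41 to 2.22 CPM. The part of nerve in the levels of the 9 genes was not tested.

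The sum of 14 Schwann cell and glia markers was 115 to 129 CPM in wild type and 122 to 124 CPM in Smad7-/-. Sox10, the glial and neural crest transcription factor, was at 0.449 to 0.90 CPM in wild type and 1.20 to 1.36 CPM in Smad7-/- (log2 0.85 ± 0.34 SE; edgeR adjusted p = 0.90). The 14 skeletal muscle markers summed to 8.25 to 11.6 CPM over the 6 libraries.

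Levels were compared between genes as CPM per kb of merged exons in GENCODE M21. Ngfr was the highest of the 9, at 9.99 CPM per kb over all 6 libraries, followed by Ntrk2 at 5.52, Gfra1 at 3.44 and Gdnf at 2.75. The low end held Nrtn at 1.34, Ntf3 at 0.836, Bdnf at 0.452, Ret at 0.393 and Ntrk3 at 0.284. Ngfr lay above Ntrk2, Ntrk2 above Gfra1 and Gdnf above Nrtn with no overlap between their 6 libraries. Gfra1 with Gdnf, Nrtn with Ntf3, Ntf3 with Bdnf, Bdnf with Ret, and Ret with Ntrk3 did overlap. The order of Ngfr and Ntrk2 rests on the length used: per kb of the longest coding transcript Ngfr was higher in 1 of 6 libraries, since the merged exons of Ntrk2 span 19292 bases. By that length Ret was above Ntrk3 in 4 libraries, against 6 by merged exons, and Bdnf above Ret in 5, against 3. The annotation used for counting is not known, so its exon lengths may differ from these. Without division by length Ntrk3, at 8.56 CPM, was above Bdnf (2.81), Ret (2.66), Ntf3 (1.43) and Nrtn (1.38).

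Per kb of merged exons Gfra1 exceeded Ret in 6 of 6 libraries, by 7.25-fold to 9.69-fold with a median of 8.83, and the median was 8.41 with the longest coding transcripts. Ntrk2 exceeded Ntrk3 by 13.03-fold to 33.7-fold per kb of merged exons, and was higher in 6 of 6 libraries by either length. Between ligands, on the same scale, Gdnf exceeded Nrtn by 1.60-fold to 3.51-fold, and Bdnf was below Ntf3 in all 6.

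**Figure D4:**
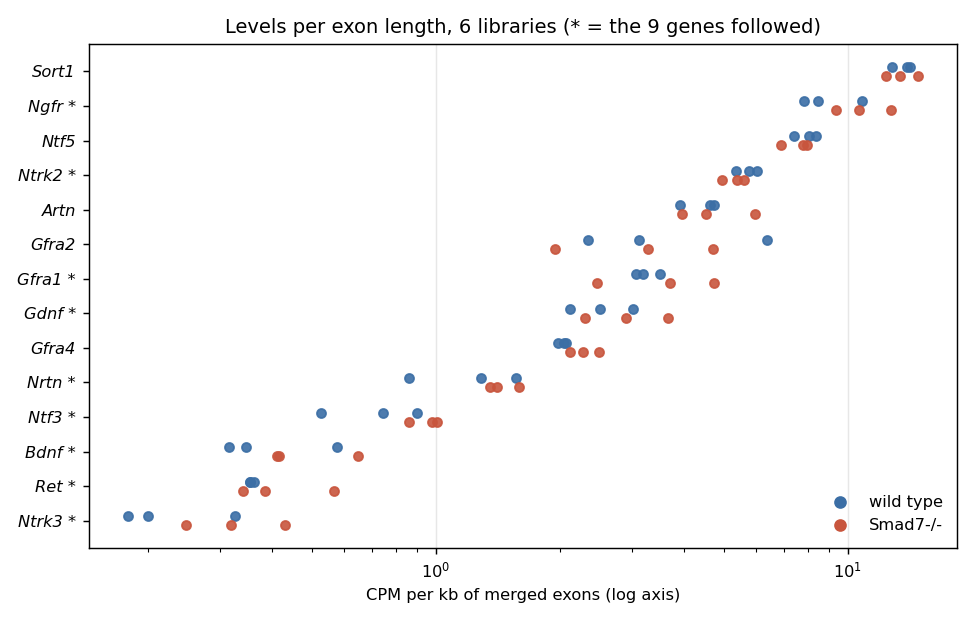
Levels in CPM per kb of merged exons (log axis) of the 9 genes (asterisks) and of 5 further ligand and receptor genes, ordered by their mean, with 1 point per library (blue wild type, red Smad7-/-). The 9 genes run from Ntrk3 at 0.284 to Ngfr at 9.99, and the wild-type and Smad7-/- points of each of the 9 overlap.

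The remaining ligands and receptors of these systems showed the same absence of calls. Of 17 genes listed, 13 were tested, 7 with a higher and 6 with a lower mean in Smad7-/-, with a median log2 change of 0.07 and 0 called. Sdc3, a heparan sulphate proteoglycan that binds GDNF, was the most abundant at 280 ± 29.3 and 315 ± 21.2 CPM (log2 0.17 ± 0.10 SE). Sort1, encoding sortilin, the partner of p75 for proneurotrophins, was at -0.01 ± 0.09. Ncam1, the adhesion molecule that also receives GDNF, was at 0.30 ± 0.22.

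Ntf5, the table's symbol for the gene of neurotrophin-4, another TRKB ligand, was the most abundant neurotrophin gene per length, at 7.75 CPM per kb against 0.452 for Bdnf. It exceeded Gdnf in 6 of 6 libraries by 1.87-fold to 3.96-fold and differed by -0.08 ± 0.11 between genotypes. Artn, encoding artemin, the GFRA3 ligand, stood at 4.62 CPM per kb, also above Gdnf. Ntf5 and Artn were singled out after their values were seen.

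Downstream of the receptors, the 27 adaptor and relay genes were all tested, 18 higher and 9 lower, with a median of 0.04 and 0 called. Gab2, a docking protein for SHP2 and PI3 kinase, was at 23 ± 4.49 CPM in wild type and 31.8 ± 3.95 CPM in Smad7-/- (log2 0.46 ± 0.15 SE; edgeR unadjusted p = 0.0130, adjusted p = 0.796). Sh2b2, an adaptor of receptor kinases, was at 0.55 ± 0.21. The abundant Maged1 and Kidins220, which bind p75 and TRK receptors, were at -0.0027 ± 0.09 and -0.11 ± 0.10, and the phosphatase gene Ptpn11 was at -0.04 ± 0.10.

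Of 14 genes that process proneurotrophins or control the proteases that do so, 12 were tested, 7 higher and 5 lower, with a median of 0.12 and 0 called. Mmp9, a gelatinase that can cleave proneurotrophins and is a hallmark of osteoclasts, was at 265 ± 74.1 CPM in wild type and 394 ± 46.8 CPM in Smad7-/- (log2 0.57 ± 0.20 SE; edgeR unadjusted p = 0.0196, adjusted p = 0.827). The 10 macrophage markers in the tables summed to 120 to 167 CPM in wild type and 205 to 223 CPM in Smad7-/- beside it, and their part in the Mmp9 values was not tested. The convertase genes Furin, Pcsk5 and Pcsk6 were at 0.06 ± 0.16, 0.21 ± 0.12 and 0.39 ± 0.20.

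Of 15 genes known to respond to RET or TRK signalling, 14 were tested, 9 higher and 5 lower, with a median of 0.10 and 0 called. Etv5, Dusp6 and Etv4, transcripts induced by receptor kinases of many kinds, were at 0.14 ± 0.11, 0.07 ± 0.12 and -0.03 ± 0.21. The immediate early genes Egr1 and Fos had ranges that did not overlap, at 16.2 ± 0.631 against 19.3 ± 2.16 CPM and 9.02 ± 0.248 against 10.9 ± 0.528 CPM (edgeR adjusted p = 0.989 and 0.991). They were the 2 of the 14 with ranges wholly higher, beside 4.97% of all tested genes, and 0 lay wholly lower. Egr2 and Arc, also immediate early genes, stayed under 1 CPM. They were fitted lower, at -0.16 ± 0.46 and -0.73 ± 0.45, with overlapping ranges.

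Over the 66 tested genes of these 4 lists, 4 had an unadjusted p under 0.05 in edgeR, all higher in Smad7-/- (Gab2, Mmp9, Sh2b2 and Gab1), and 4 did so in DESeq2 and in limma-voom. In edgeR 5.14% of all tested genes had such a p. Ranges lay wholly higher in Smad7-/- for 9 of the 66, beside 4.97% of all tested genes, and wholly lower for 1, beside 3.91%. The median log2 change was 0.06, against -0.00283 over all tested genes.

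The genes with the profile nearest to each of the 9 over the 6 libraries were sought among about 10825 genes of at least 5 CPM, by the root mean square difference of centred log2 CPM. For Ntrk3, whose own range was 1.26, these were Sfrp2, a secreted Wnt inhibitor, at a difference of 0.0906 and Itgbl1 at 0.121. For Ret, with a range of 0.721, they were Fat4, a giant cadherin of mesenchyme, at 0.0688 and Adamts12 at 0.0797. Gdnf was nearest to Mest (0.0502) and Nhsl2 (0.0593), and Ngfr to Capn6 (0.0641) and Lyrm5 (0.0829). Ntf3 and Nrtn, which were both lowest in wild-type library 3, shared Thg1l among their nearest genes, at 0.0819 and 0.0974, beside Prrg4 (0.0940) and S100a4 (0.0674). Bdnf was nearest to Thyn1 (0.117) and Bhlhe41 (0.120), Ntrk2 to Gmfb (0.0294) and Gltpd1 (0.0327), and Gfra1 to Rwdd3 (0.0770) and Unkl (0.0838). With 6 libraries and so many candidates close profiles are found for any gene, so these are descriptions only.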

How the data were processed

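RNA of tooth germs was sequenced in 6 libraries, 3 per genotype, with a TruSeq kit that does not record strand. The submitters' processing notes name HISAT2, featureCounts, DESeq2 and the build mm10; versions and the gene annotation are not given in the sources used here. The deposited files of the authors hold raw counts per gene symbol, 1 table per library, and 27 of 23420 symbols had become dates. The 9 genes and all lists were chosen with earlier results of these data known.

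All 6 libraries entered 1 fit with no covariate: filterByExpr (minimum count 10, minimum total 15) left 15284 genes, scaled by TMM (factors 0.984 to 1.02), and the robust quasi-likelihood test of edgeR 4.0.16 in R 4.3.3 gave p-values that were adjusted (Benjamini-Hochberg) across the 15284 genes and called under 0.05. CPM values carry the SD of a group's libraries, and log2 changes the fitted SE. The script was tested on simulated data. Depth ran from 37591888 to 56575476 counts, and counting errors cover counting alone, since PCR copies were not told apart. Positions and exon lengths came from GENCODE M21, start sites from RefSeq (GRCm38.p6), and both use the mm10 assembly.

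Genes were named by rule: the 9 genes, Smad7, the 3 most abundant and 2 of smallest p in each pathway list, the defining markers of cell type lists, and the 2 nearest profiles per gene. Some genes this rule names are not reported here. Others are named as examples and were chosen after their values were seen. Alternatives were DESeq2 1.42.0, limma-voom (limma 3.58.1), other scaling and filters, the test without robust estimation, a replicate block, sex or library set as a covariate, and leaving out each library. Figures used matplotlib 3.10.9.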

Additional observations from a re-analysis of the deposited data

How the results depend on the processing

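None of the 9 genes and none of the genes in the 4 pathway lists was called under any of the 16 alternatives. DESeq2 called 59 genes in all where edgeR called 4, and leaving out 1 library at a time gave 1 to 7, with 2 without Smad7-/- library 1, 1 without Smad7-/- library 2 and 7 without Smad7-/- library 3; the cause was not tested. The direction of Gfra1 was the 1 that reversed, at -0.0774 without Smad7-/- library 3, in a range up to 0.38 without Smad7-/- library 2. Scaling by library totals or RLE reversed the direction of none of the 9 genes, and was not examined for the direction of single genes in the lists. No label says that the replicate numbers pair the libraries. Residuals of same-numbered libraries correlated at 0.169, -0.0339 and 0.0927, and 3 of 6 libraries correlated best with their own number. With 3 libraries per group these values cannot decide whether same-numbered libraries share a litter or a day. With the replicate block edgeR again called 4 genes and 0 of the 9, with Ntrk3 at 0.51 ± 0.14 (adjusted p = 0.337). Counting limits Ntf3 and Nrtn most, at 43 and 42 counts in their lowest library.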
